A study of Mus musculus with 161 samples.

Results

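Chromosome folding was compared between mouse embryonic stem cells rescued by CTCF lacking residues 179-265 and cells rescued by full-length CTCF. The libraries were chosen by their labels: 2 chromosome conformation capture carbon copy (5C) libraries of the deletion line, replicates 1 and 2, against 14 of the Full-length line, out of 91 5C libraries in the series. Both lines derive from male E14Tg2a cells, in which a single X chromosome is present and active. Both carry endogenous CTCF fused to the auxin-inducible degron and eGFP, a randomly inserted Tir1 that lets auxin direct the fusion to degradation, and rtTA3G with a TetO-driven CTCF cDNA, tagged with 3xFLAG and mRuby2, at the Tigre locus. All 16 libraries came from cells given auxin and doxycycline together for 4 days, so endogenous CTCF was degraded in both groups and the transgene was the CTCF left to compare. Each line is 1 clone (EN212.1 for the deletion, EN133.10 for Full-length), picked for a transgene level near that of Full-length by flow cytometry, and those levels were not analysed here. The deletion, the clone and its transgene level therefore cannot be told apart. The genotype label of EN212.1 gives the residues without the prefix for a deletion. It is read here as the deletion that the study's methods describe, called Del_179-265, and 5C offers no check of it.

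CTCF is a zinc-finger protein that binds a directional DNA motif and halts cohesin, the ring complex that extrudes chromatin into loops. Where cohesin is halted, contacts build up on either side of the site and fall across it, which gives the boundaries of topologically associating domains (TADs). The N terminus of CTCF precedes the zinc fingers and faces the cohesin that arrives from the inside of a loop anchored on convergent motifs. Residues 179 to 265 lie in the last stretch of the N terminus before the zinc fingers and include a short segment known to contact the cohesin subunits RAD21 and SA2. The region assayed holds the X-inactivation centre, with the noncoding genes Xist, which coats the inactive X, Tsix, its antisense repressor, Jpx (Enox in the annotation) and Ftx (B230206F22Rik), both linked to Xist activation, and Rlim, whose ubiquitin ligase also promotes Xist expression.

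The 5C design was read in 230 bins of 20 kb from chrX:98831148-103431147 (mm9). Total counts were 13905116 and 11625506 in the Del_179-265 libraries and ran from 5262254 to 23096139 in the 12 Full-length libraries with a complete count table. Among the libraries with a complete count table, no 2 agreed within sampling noise, and the others were not compared. The closest pair differed by a chi-square of 3.49 per primer pair, where sampling alone gives 1, and the 2 Del_179-265 libraries by 22.3. The labels do not say whether replicates were separate cultures, so p-values measure the spread between libraries, which may be technical. Library numbers place Del_179-265 in 1 unbroken run with Full-length replicates 2 and 3 (1 of 2 libraries numbered 3) and with 2 libraries each of Del_1-88, Del_89-178, Del_264-288 and H288R. Values within that run are given beside the results.

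The sites that the largest differences below lie on or beside are shown as sequence, since motif orientation is what makes a CTCF site directional. The authors' list of FLAG-CTCF peaks in Full-length cells, with 200 bp a peak, held 78 peaks in the region, and 54 of the 230 bins had one. The motif searched, on both strands, was CCA, any 2 bases, AG, any 2 bases and GGC, 12 bases in all. It was found in 31 of those peaks (39.7%), 18 on the + strand (forward) and 13 on the - strand (reverse), against 488 of 1128 peaks on the chromosome (43.3%) and 321 of 22999 tiled windows of 200 bp in the region (1.40%). The peak list was made from Full-length cells, and binding of Del_179-265 itself was not analysed here. Each peak below is given in mm9 on the + strand, with the motif in capitals.
Boundary 3, forward, intron of 4930519F16Rik, chrX:100455304-100455503: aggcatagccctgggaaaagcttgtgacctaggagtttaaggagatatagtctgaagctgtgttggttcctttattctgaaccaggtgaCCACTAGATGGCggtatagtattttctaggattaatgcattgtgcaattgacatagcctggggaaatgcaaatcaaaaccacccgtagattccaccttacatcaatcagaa
Tsix intron, reverse, first peak, chrX:100639186-100639385: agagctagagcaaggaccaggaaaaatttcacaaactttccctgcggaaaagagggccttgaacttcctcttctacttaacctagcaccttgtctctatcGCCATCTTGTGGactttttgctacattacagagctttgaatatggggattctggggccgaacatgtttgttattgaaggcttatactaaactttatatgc
Tsix intron, reverse, second peak, chrX:100649485-100649684: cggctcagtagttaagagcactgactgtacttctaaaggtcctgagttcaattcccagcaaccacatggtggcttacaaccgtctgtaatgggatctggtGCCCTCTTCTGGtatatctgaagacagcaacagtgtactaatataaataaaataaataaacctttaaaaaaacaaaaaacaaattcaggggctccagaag
Upstream of boundary 5, reverse, intergenic near Rlim, chrX:101185864-101186063: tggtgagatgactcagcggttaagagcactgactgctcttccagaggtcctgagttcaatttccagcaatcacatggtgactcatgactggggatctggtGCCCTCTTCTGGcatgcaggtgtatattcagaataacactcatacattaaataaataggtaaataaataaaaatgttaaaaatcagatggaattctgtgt
Upstream of boundary 6, reverse, intergenic between Magt1 and Cox7b, chrX:103208673-103208872: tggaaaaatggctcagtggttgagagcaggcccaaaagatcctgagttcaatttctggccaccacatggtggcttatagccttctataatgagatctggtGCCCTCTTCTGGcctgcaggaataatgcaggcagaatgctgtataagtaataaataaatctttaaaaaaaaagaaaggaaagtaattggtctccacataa
The second Tsix peak and the peaks beside boundaries 5 and 6 carry the same 12 motif letters, and the second Tsix peak shares a run of 22 letters with the peak near Rlim. Read along the motif, those letters are CCAGAAGAGGGC, the word of 15 of the 31 matches in the region (8 forward and 7 reverse). The 5 peaks are referred to below by these places.

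Insulation was lower with Del_179-265 at boundaries 2, 3, 5 and 6 and could not be told from Full-length at boundaries 1 and 4. Each 20-kb bin was scored by averaging the contacts that span it, up to 100 kb on either side, dividing by the same average over all bins and taking the negative log2, so that a high score means few contacts across the bin. The 6 boundaries are those the study defined from cells with endogenous CTCF. The study left out minima that were also found after auxin had removed CTCF, so the 6 were selected as dependent on CTCF. The 4 called boundaries of 6 (66.7%) compare with 33 of the 193 scored bins (17.1%) in which both Del_179-265 libraries lay below all 14 Full-length libraries.

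Boundary 3, in the gene 4930519F16Rik (chrX:100451148-100471147), had the largest difference. Del_179-265 scored 0.056 and 0.015 there, and Full-length ran from 0.30 through a median of 0.39 to 0.44. The groups did not overlap, and the difference in means was -0.35 on the log2 scale (0.035 ± 0.029, SD, n = 2, against 0.38 ± 0.043, SD, n = 14; two-sided exact permutation test, p = 0.0167, adjusted p = 0.025 over the 6 boundaries). Expressed as contact, the square across boundary 3 held 127% of the Full-length mean. That left it close to the mean of all squares in the region (0.962 and 0.99 of that mean in the 2 libraries).

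Boundary 5 (chrX:101211148-101231147), intergenic, upstream of the start of Rlim and with no peak in its bin or the bins beside it, scored 0.40 and 0.45 with Del_179-265. Full-length ran from 0.63 through 0.71 to 0.79, again without overlap, a difference of -0.28 (exact permutation adjusted p = 0.025) and 122% of the Full-length contact. Boundary 6 (chrX:103211148-103231147) spans parts of Cox7b, a subunit of cytochrome c oxidase, and Atp7a, a copper transporter, and scored 0.51 and 0.50. Full-length ran there from 0.60 through 0.68 to 0.91, a difference of -0.19 (exact permutation adjusted p = 0.025) and 114% of the contact. Boundary 2 (chrX:99411148-99431147), intergenic beyond Rps4x, scored 0.50 and 0.48 against 0.55 through 0.66 to 0.85, a difference of -0.17 (exact permutation adjusted p = 0.025) and 112% of the contact. Boundaries 3 and 5 thus lay further below Full-length than 2 and 6, whose Full-length libraries spread more (SD 0.086 and 0.084, against 0.043 and 0.05).

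The other boundaries did not separate. Boundary 1, inside Nhsl2 (chrX:99151148-99171147), scored -0.25 and -0.19 against -0.26 through -0.19 to -0.093, below the mean of the region in every library (difference -0.039, exact permutation adjusted p = 0.44). Boundary 4, at Xist, Tsix and Jpx (chrX:100671148-100691147), had the highest score of the 6 in every library. It was 1.42 and 1.27 with Del_179-265 against 1.15 through 1.36 to 1.68, with overlap (difference -0.034, exact permutation adjusted p = 0.767). The SD over Full-length libraries was 0.14 there, the largest of the 6 boundaries.

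**Figure D1:**
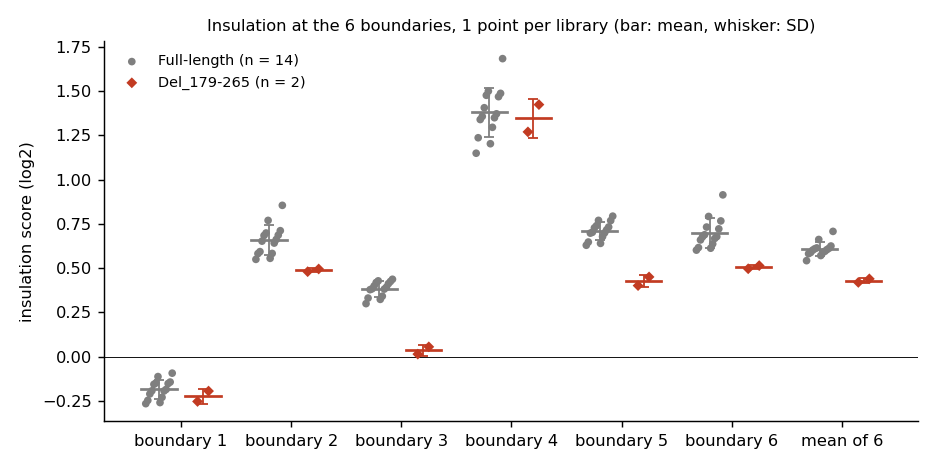
Insulation score (log2, vertical axis) at the 6 boundaries and their mean, with 1 point per library, a bar at the group mean and a whisker of 1 SD, for Full-length (n = 14, grey) and Del_179-265 (n = 2, red). At boundaries 2, 3, 5 and 6 both red points lie below all grey points, with the widest gap at boundary 3 (0.056 against a lowest Full-length value of 0.30), while at boundaries 1 and 4 they fall among them.

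Averaged over the 6 boundaries, the score was 0.44 and 0.42 with Del_179-265 against 0.54 through 0.60 to 0.71, a difference of -0.18 without overlap. Its sign could therefore not change in the 16 fits that each left out 1 library (-0.188 to -0.168). Where that was a Del_179-265 library, 1 against 14 allows no exact permutation p below 0.133, and limma, with the spread from Full-length alone, gave p = 0.000703 without replicate 1 and 0.00175 without replicate 2. Within the run of library numbers, Full-length replicates 2 and 3 averaged 0.588 and 0.595, scored 0.40 and 0.39 at boundary 3 and 0.770 and 0.740 at boundary 5, and lay near the low end of Full-length at boundary 6 (0.613 and 0.637). The difference within the run was -0.36 at boundary 3, -0.33 at boundary 5, -0.16 at boundary 2 and -0.12 at boundary 6. There 2 libraries against 2 allow no exact permutation p below 0.333, and limma, with the spread pooled over the 6 lines of the run, gave adjusted p of 0.000234, 8.04e-06, 0.00224 and 0.00126. Without Del_179-265 replicate 1 or 2 the calls at boundaries 2 and 6 were lost (limma adjusted p = 0.0863 and 0.119 at boundary 2, 0.0663 and 0.0988 at boundary 6), as they were with the replicate number as a block (0.547 at both). On counts scaled to 1 total but not corrected, the difference in the mean was -0.0898 (exact permutation p = 0.022), and no single boundary was called on those counts (adjusted p from 0.0659 to 0.0989 at the 4 boundaries), nor by a score that divides contacts on each side of the bin by those across it (0.05 to 0.125).

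Along the whole region, insulation with Del_179-265 was called lower more often close to the boundaries than far from them, and calls of higher insulation stood in both. The score was called lower in 33 of 193 bins (17.1%) and higher in 26 (13.5%) by limma with Benjamini-Hochberg adjustment over bins. Both Del_179-265 libraries lay above all Full-length libraries in 23 bins (11.9%). Of the 30 bins within 40 kb of a boundary, 17 were called lower and 4 higher. Within 100 kb the counts were 25 and 12 of 65 bins, whereas of the 128 bins over 100 kb from any boundary 8 were called lower and 14 higher. Neighbouring bins share contacts, so they are not independent, and these counts describe 1 region. Around boundary 5, 8 of the 11 bins within 100 kb were called lower. Around boundary 6 the count was 5 of 11, around boundary 3 it was 4 of 10, around boundary 2 it was 2 of 11, and at boundaries 1 and 4 it was 3 of 11 each, beside 5 bins called higher. Bins with a FLAG-CTCF peak were called lower in 29.3% of 41 cases and bins without one in 13.8%.

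The profile was also flatter. The SD of the score over the 193 bins was 0.422 and 0.407 with Del_179-265 against 0.449 through 0.470 to 0.512 in Full-length, with no overlap (two-sided exact permutation test, p = 0.0167, the smallest that 2 libraries against 14 allow). Leaving out Del_179-265 replicate 1 left 16 bins lower and 14 higher, and leaving out replicate 2 left 15 and 13. With the replicate number as a block, 5 bins were lower and 1 was higher. The score that divides contacts on each side by those across called 10 bins lower by limma and none higher.

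**Figure D2:**
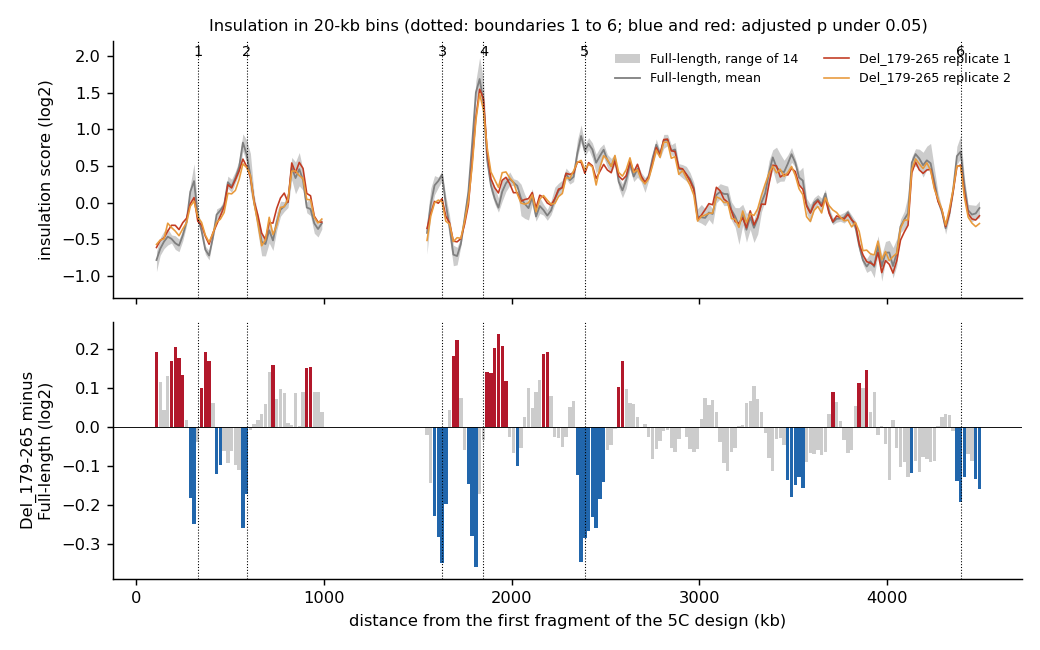
Insulation score (log2) in 20-kb bins against distance from the first fragment of the 5C design (kb), with the range of the 14 Full-length libraries shaded, their mean in grey and the 2 Del_179-265 libraries in red and orange (top), and the difference of means per bin (bottom). Blue and red bars are the 33 and 26 bins called lower and higher, grey bars were not called, dotted lines mark boundaries 1 to 6, and the gap holds bins with no score. The boundary bins of 2, 3, 5 and 6 are blue, with 8 of 11 blue bars within 100 kb of boundary 5 and 2 of 11 within 100 kb of boundary 2, and red bars follow boundary 4.

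The largest fall of the profile was not at a boundary bin but 40 kb before boundary 4, in the bin of Tsix that holds both reverse-motif peaks printed above. There Del_179-265 scored 1.16 and 1.13 against 1.38 through 1.46 to 1.66 in Full-length. The groups did not overlap, and the difference was -0.36 (limma adjusted p = 0.00107), although it was -0.16 and not called on uncorrected counts (adjusted p = 0.339). The other 4 of the 5 largest falls were boundary 3 itself and the bin before it (-0.28, limma adjusted p = 2.04e-06), and boundary 5 and the bin before it (-0.35, limma adjusted p = 1.94e-05). In the bin before boundary 5 the 2 libraries scored 0.55 and 0.58, and Full-length ran from 0.82 through 0.89 to 1.06.

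Of the 5 largest rises, 3 lay after boundary 4, 1 between boundaries 3 and 4 and 1 before boundary 1. In the bin of Ftx 80 kb after boundary 4, Del_179-265 scored 0.13 and 0.21 and Full-length ran from -0.13 through -0.078 to 0.065. That is a rise of 0.24 (limma adjusted p = 0.000424) with no overlap. The next Ftx bin rose by 0.21 and the bin 60 kb after boundary 4 by 0.20 (limma adjusted p = 0.0147 and 0.00279), both with libraries that overlapped Full-length and neither called without Del_179-265 replicate 2. Between boundaries 3 and 4, the bin 80 kb after boundary 3 scored -0.53 and -0.48 against -0.85 through -0.72 to -0.61, a rise of 0.22 (limma adjusted p = 0.00127). In Nhsl2, 120 kb before boundary 1, the score was -0.31 and -0.39 against -0.64 through -0.55 to -0.45, a rise of 0.20 (limma adjusted p = 0.000722). None of these 5 rises was called by limma in the score that divides contacts on each side by those across.

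Contacts inside the segments that the boundaries delimit fell in 3 and rose in 1 of the 7 (4 called, 57.1%). They were taken as log2 of the mean contact relative to the mean at the same distance in the same library, from 40 kb. In the 320 kb before boundary 1, which hold Ogt, the enzyme of O-GlcNAc addition, and Cxcr3, a chemokine receptor, the value was 0.33 in both Del_179-265 libraries and 0.45 through 0.50 to 0.56 in Full-length. The difference was -0.17 on the log2 scale. In the 1020-kb domain between boundaries 2 and 3, with the histone deacetylase gene Hdac8, it was 0.33 and 0.31 against 0.38 through 0.44 to 0.53 (difference -0.12). In the 520-kb domain between boundaries 4 and 5, with Ftx and Rlim, it was 0.049 and 0.038 against 0.075 through 0.14 to 0.20 (difference -0.10).

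The segment after boundary 6 went the other way. Its 200 kb hold Tlr13, a sensor of bacterial RNA, Pgk1, a glycolytic kinase, and Taf9b, a subunit of transcription initiation complexes. There Del_179-265 had -0.091 and 0.0005 against -0.42 through -0.29 to -0.13, a difference of 0.24. None of the 4 overlapped Full-length, and each had an exact permutation adjusted p of 0.0292 over the 7 segments. The domains between boundaries 1 and 2, 3 and 4, and 5 and 6 overlapped Full-length (differences of 0.04, -0.034 and 0.00036). The last of these is the longest, at 1980 kb, and had the smallest difference of the 7. With the replicate number as a block none of the 7 was called, and without Del_179-265 replicate 2 only the segment before boundary 1 was. The rise after boundary 6 was 0.10 within the run of library numbers and 0.084 on uncorrected counts.

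Between neighbouring segments, contacts across boundary 5 and across boundary 6 moved in opposite directions, and neither was called by the exact test. Across boundary 5, Del_179-265 had -0.013 and -0.037 against -0.17 through -0.11 to -0.052, a difference of 0.09. Across boundary 6, it had 0.0093 and 0.03 against 0.079 through 0.27 to 0.34, a difference of -0.22. Neither overlapped Full-length, and both had p = 0.0167 and an adjusted p of 0.05 over the 6 pairs (two-sided exact permutation test), which does not lie under the threshold of 0.05 (0 of 6 called, 0%). limma, used after the data were seen, gave adjusted p of 0.0165 and 0.0043 for the same differences. Within the run of library numbers they were 0.13 and -0.29. Across boundaries 1 to 4 the groups overlapped, with differences between -0.0017 and 0.061. Boundary 6 thus had more contact across its bin within 100 kb, as the insulation score shows, and less contact between the 2 segments it divides when these are taken whole.

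**Figure D3:**
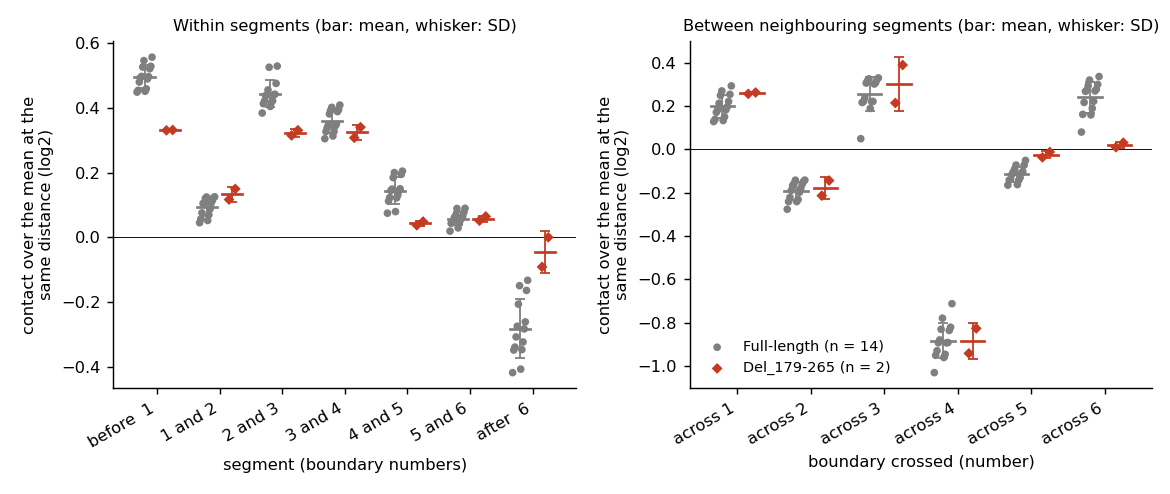
Contact relative to the mean at the same distance (log2) within the 7 segments (left) and between neighbouring segments across each of the 6 boundaries (right), with 1 point per library, a bar at the group mean and a whisker of 1 SD, for Full-length (n = 14, grey) and Del_179-265 (n = 2, red). The red points lie below the grey ones before boundary 1, between boundaries 2 and 3 and between 4 and 5, and above them after boundary 6 (left); across boundary 5 they lie above and across boundary 6 below (right).

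The fall of contact with distance did not separate the groups. In 7 distance classes from 40 kb to over 3200 kb, the mean contact of a class relative to the mean over all pairs differed by -0.049 to 0.14 on the log2 scale, and 0 of 7 classes were called (0%), with 0 also by limma and 0 at an unadjusted p under 0.05 (smallest exact permutation p = 0.133). At 40 to 100 kb, for example, Del_179-265 had 3.17 and 3.15 and Full-length 3.06 through 3.15 to 3.24. Full-length libraries themselves varied most at long range, from -3.59 to -2.42 over 3200 kb, where Del_179-265 had -3.21 and -3.06. Against the 2 Full-length libraries of its own run, where the spread was pooled over lines by limma, 4 classes were called. Contact was lower at 400 to 800 kb (-0.05) and 800 to 1600 kb (-0.051) and higher at 1600 to 3200 kb (0.13) and over 3200 kb (0.34).

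Contacts between pairs of boundaries were read in 3 by 3 bins around each crossing, and none of the 15 was called (0%; 0 also by limma, 1 at an unadjusted exact p under 0.05). The largest rise was between boundaries 3 and 6, where Del_179-265 had 0.45 and 0.36 and Full-length -1.71 through -0.43 to 0.014, a difference of 0.88 without overlap (exact permutation p = 0.0167, adjusted p = 0.25). The largest difference downward was between boundaries 2 and 5, at 0.082 and 0.078 against -0.15 through 0.51 to 0.97, a difference of -0.39 with overlap (adjusted p = 0.5).

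Over the 344 bin pairs at 100 to 1000 kb that both held a FLAG-CTCF peak, the mean log2 contact relative to distance, pairs at zero left out, was 0.11 and 0.026 with Del_179-265 against 0.044 through 0.099 to 0.15 in Full-length (difference -0.038, exact permutation p = 0.167). Over the 4506 pairs without a peak it was -0.27 and -0.31 against -0.50 through -0.35 to -0.31, a difference of 0.072 (exact permutation p = 0.05). The first Del_179-265 library lay among Full-length for peak pairs and the second below, and without replicate 1 the difference was -0.079 (limma p = 0.0385) and without replicate 2 it was 0.0023 (limma p = 0.949). On uncorrected counts the difference was -0.103 (exact permutation p = 0.022), and with bins by the median it was 0.063 (exact permutation p = 0.35), so its direction was not the same under every setting.

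Split by motif orientation, a division made after the data were seen, no class of peak pair was called. The 20 pairs with a forward motif upstream and a reverse motif downstream, the convergent arrangement of looping sites, had 0.16 and 0.24 with Del_179-265 and 0.13 through 0.44 to 0.56 with Full-length (difference -0.20, exact permutation adjusted p = 0.2 over the 4 classes). The 18 divergent pairs, reverse upstream and forward downstream, had 0.14 and -0.025 against -0.37 through -0.17 to 0.065 (difference 0.20, adjusted p = 0.2). The 27 pairs with forward motifs in both bins and the 11 with reverse motifs in both differed by -0.12 and -0.087 (adjusted p = 0.333).

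In the whole corrected map, 20618 bin pairs from 40 kb were measured in all 16 libraries and 17118 were tested. Of these, 88 (0.514%) were called lower with Del_179-265 and 17 (0.0993%) higher by limma on log2(contact relative to the map mean + 0.05), while 2263 pairs (13.2%) had an unadjusted p under 0.05, of which 1267 were lower. Both Del_179-265 libraries lay below all Full-length libraries in 320 pairs (1.87%) and above them in 515 (3.01%). The lower pairs were long, with a median of 740 kb, the higher ones short, with a median of 160 kb, and the tested pairs had a median of 1130 kb. Pairs joining the domain before boundary 6 to the segment after it made up 24 of the 88 lower calls. That is 2.75% of the 873 such pairs, whose median difference was -0.23. In a count by bin, the bin of Tlr13 (chrX:103351148-103371147) entered 10 lower pairs, and 3 bins entered 6 each. Those were the bin of Rlim with the reverse peak beside boundary 5 and that of Magee2, with a peak but no motif. The third was an intergenic bin with no peak (chrX:102891148-102911147). These bins were picked for the highest counts among the called pairs. Their counts were not tested against the 0.514% called lower over all tested pairs.

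Close to the boundaries the map showed the opposite. In the squares of 100 kb across the 6 boundaries, both Del_179-265 libraries exceeded all Full-length libraries in 36 of 150 pairs and lay below them in 1. The insulation score at a boundary averages these same contacts, so the squares are not separate support for the lower scores. Over all 17118 tested pairs these counts were 515 (3.01%) and 320 (1.87%). The median difference was 0.41 across boundary 5, 0.39 across boundary 3, 0.22 across boundary 6, 0.19 across boundary 1, 0.17 across boundary 2 and 0.09 across boundary 4, beside 0.028 over all tested pairs. In these squares 3 pairs (2%) were called higher and 1 (0.667%) lower, beside 0.0993% and 0.514% over all tested pairs. Pairs with a FLAG-CTCF peak in both bins were called lower in 14 of 951 cases (1.47%), and pairs with a peak in neither in 30 of 10161 (0.295%). The share called higher was also larger with a peak in both bins, at 3 pairs (0.315%) against 6 (0.059%). Both Del_179-265 libraries lay below all Full-length libraries in 33 of the 951 pairs and above them in 29.

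These counts depended on single libraries. Without Del_179-265 replicate 1, 436 pairs were lower and 46 higher, and without replicate 2, 11 and 2. Of the 105 called pairs, 80 were called in the first case and 7 in the second. Within the run of library numbers 1 pair was lower and none higher, and with the replicate number as a block none was called. None of the 105 called pairs was called again in either. The 104 called pairs tested in the run and all 105 with the block kept their direction. Both settings reuse the 2 Del_179-265 libraries from which the pairs were called, so this direction is not separate support. Among Full-length libraries, 31 pairs were higher without the replicate 3 outside that run, 11 without the replicate 4 of incomplete counts, 5 or 11, 10 without replicate 9 and 9 without replicate 8. Zeros made up 4.45% of the values of Del_179-265 replicate 1 and 11% of replicate 2, and between 1.80% and 11.3% in Full-length. Of the 88 lower pairs, 24 had a zero in a Del_179-265 library. The part of these zeros in the counts was not tested.

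**Figure D4:**
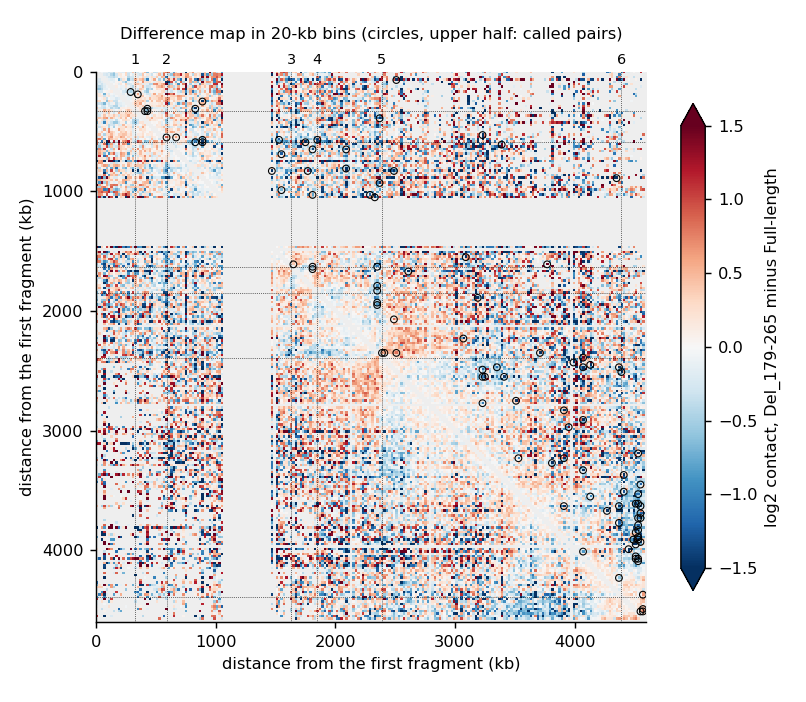
Difference of mean log2 contact, Del_179-265 minus Full-length, for pairs of 20-kb bins, with both axes as distance from the first fragment of the design (kb), boundaries 1 to 6 as dotted lines and grey where no pair was measured in all 16 libraries. Red is higher and blue lower with Del_179-265 (colour scale in log2, cut at 1.5 either way), and circles on 1 side of the diagonal mark the 105 called pairs. Red lies across boundaries 3 and 5 near the diagonal, and a blue block with 24 of the 88 lower calls joins the domain before boundary 6 to the segment after it.

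Among the 5 lower pairs of smallest adjusted p, the contact between boundary 3 and the Tsix bin, 180 kb apart, was the one with deep counts. It joins the forward motif of boundary 3 to the 2 reverse motifs in Tsix printed above. The 2 Del_179-265 libraries had 7.53 and 6.61 times the map mean there, from 5939 and 5166 counts, and Full-length ran from 10.2 through 11.8 to 14.1. All 14 Full-length libraries were higher, and the contact fell by 0.76 on the log2 scale (limma adjusted p = 0.00163). Without Del_179-265 replicate 2 the difference was -0.67 and not called (limma adjusted p = 0.0998), and within the run of library numbers it was -0.71 (0.0755).

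The other 4 lower pairs were weak contacts. Between Nhsl2 before boundary 1 and Hdac8, 520 kb away, Del_179-265 had 0.30 and 0.34 from 17 and 18 counts, against 1.29 through 1.87 to 4.34 in Full-length (log2 difference -2.44, limma adjusted p = 0.00163). Between Tlr13 and a bin 460 kb before it, across boundary 6, it had 0.49 and 0.63 from 30 and 31 counts against 1.43 through 2.27 to 3.21 (log2 difference -1.91, limma adjusted p = 0.00163). Both of these pairs separated the groups completely. Between Nhsl2 and Phka1, which encodes a phosphorylase kinase subunit, 640 kb away, Del_179-265 had 3 and 0 counts and Full-length between 8 and 67. Between C77370 (Nexmif) and the bin of Magt1 and Cox7b, 1900 kb away, it had 20 and 0 counts against 24 to 189, and the corrected value is listed at 0 in both libraries. No fold is given for these last pairs.

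The 5 higher pairs of smallest adjusted p were mostly short contacts at or across boundaries 2, 5 and 6. In the segment after boundary 6, the contact between Tlr13 and Pgk1, 40 kb apart, was 12.1 and 10.6 times the map mean against 7.08 through 7.66 to 8.47 (rise of 0.56 in log2, limma adjusted p = 0.00225). Between Rps4x, a ribosomal protein gene, and boundary 2, 40 kb away, it was 7.29 and 9.38 against 3.35 through 4.43 to 5.26 (rise of 0.94, limma adjusted p = 0.0108). Across boundary 5, the bin of Rlim with its reverse peak met the first bin beyond the boundary, 60 kb away, at 7.25 and 6.84 against 4.04 through 4.69 to 5.63 (rise of 0.58, limma adjusted p = 0.019). All of these ran above all 14 Full-length libraries. Across boundary 6, the bin with the reverse peak between Magt1 and Cox7b met that of Pgk1 and Taf9b, 200 kb away, at 6.05 and 6.40 against 3.08 through 4.10 to 4.70 (rise of 0.65, limma adjusted p = 0.019). The last, between Zdhhc15 and a bin 980 kb away, was a weak contact at 1.59 and 1.57 against 0.083 through 0.27 to 0.63 (limma adjusted p = 0.0231) that was 0.41 on uncorrected counts, with an adjusted p of 0.744. Without Del_179-265 replicate 2 the calls at Rps4x, across boundary 5, across boundary 6 and at Zdhhc15 were lost (limma adjusted p = 0.39, 0.201, 0.352 and 0.315), and without replicate 1 those across boundary 5 and at Zdhhc15 (0.0695 and 0.0604).

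Del_179-265 was then set beside a larger deletion, cells without induction of the transgene and a point mutant. The deletion was Del_1-265, which lacks the whole N terminus (6 libraries of clone 1 and 4 of clone 2). The cells without induction were of the Full-length line, given auxin without doxycycline (2). The point mutant was Y226A-F228A, whose substitutions lie inside the deleted residues (2). All were kept in auxin for 4 days. None of these libraries came from the run of Del_179-265, so line and run cannot be told apart. Averaged over the 6 boundaries, Del_179-265 (0.44 and 0.42) lay below each of the 10 Del_1-265 libraries (0.46 through 0.48 to 0.52). The difference was -0.053 (two-sided exact permutation test, p = 0.0303, the smallest that 2 against 10 allow). That test takes the libraries of the 2 clones as exchangeable, although the clone means were 0.471 and 0.499. Against either clone alone the difference was -0.042 and -0.069, which 2 libraries against 6 and 4 could not test at 0.05. With 1 Del_179-265 library left out, the difference from the mean of the 2 clone means was -0.0656 or -0.0455, and limma called neither. That reference weighs the clones equally, whereas the -0.053 was taken from the mean of the 10 libraries. Del_179-265 lay above the 2 libraries without doxycycline (0.37 and 0.38) and the 2 of Y226A-F228A (0.39 and 0.37), where 2 against 2 allow no exact permutation p below 0.333.

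At boundaries 3 and 5 Del_179-265 overlapped Del_1-265, and at boundary 6 it did not. At boundary 3 the 10 libraries of Del_1-265 ran from -0.018 to 0.19 around the 0.056 and 0.015 of Del_179-265. At boundary 5 they ran from 0.35 to 0.47 around 0.40 and 0.45. At boundary 6 they ran from 0.59 to 0.72, above the 0.51 and 0.50 of Del_179-265 (difference -0.14, exact permutation p = 0.0303, adjusted p = 0.182 over the 6 boundaries). limma, used after the data were seen, gave -0.15 with an adjusted p of 0.038 against the mean of both clones, 0.314 against clone 1 and 0.0122 against clone 2. Contact between the 2 segments that boundary 6 divides was higher with Del_179-265 than with Del_1-265 by 0.16, and between those that boundary 3 divides by 0.19 (limma adjusted p = 0.00315 for both, also added after the data were seen). The difference was 0.079 between those of boundary 2 and -0.046 within the domain between boundaries 5 and 6 (limma adjusted p = 0.022 and 0.0331). The last was called against neither clone alone (0.0623 and 0.0548), and that across boundary 2 not against clone 1 (0.0613). Relative to Y226A-F228A it differed by -0.13 across boundary 5 and by 0.16 across boundary 6 (limma adjusted p = 0.00201 and 0.0234), and by 0.18 across boundary 4 and 0.12 within the domain between boundaries 1 and 2 (0.0367 and 0.00605). It also differed from Y226A-F228A by 0.41 at the crossing of boundaries 4 and 5 and by -0.083 at 400 to 800 kb (limma adjusted p = 0.0164 and 0.0202). Relative to cells without doxycycline it differed by -0.13, -0.17 and -0.074 across boundaries 1, 2 and 5 (limma adjusted p = 0.0121, 0.000458 and 0.0483).

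**Figure D5:**
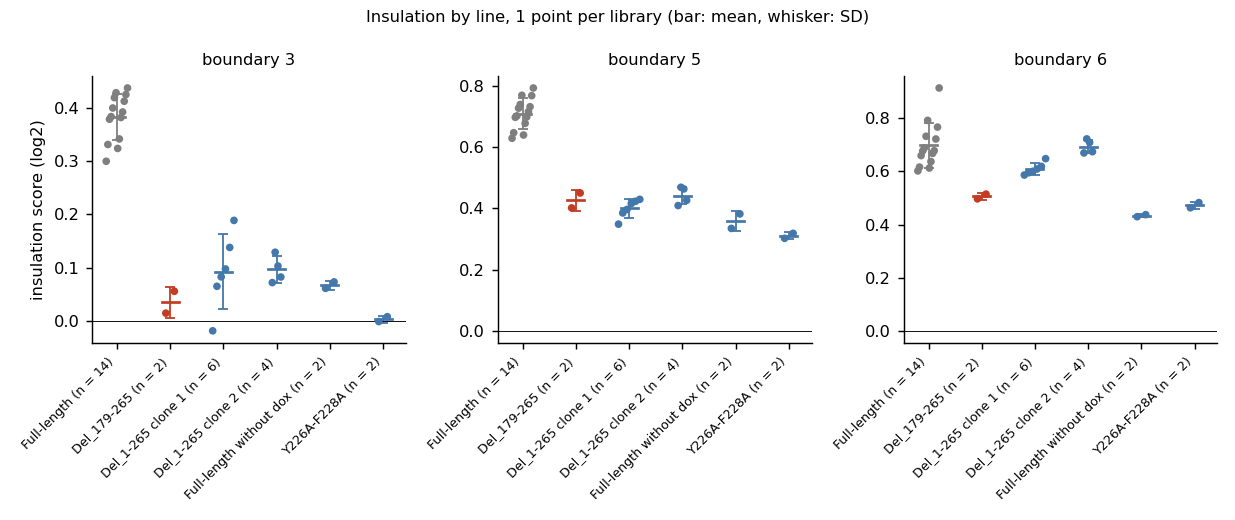
Insulation score (log2, vertical axis, a separate scale in each panel) at boundaries 3, 5 and 6 in each line, with 1 point per library, a bar at the mean and a whisker of 1 SD, for Full-length (grey), Del_179-265 (red) and the other lines (blue). Del_179-265 falls among the Del_1-265 libraries at boundaries 3 and 5, and below them at boundary 6 (0.51 and 0.50 against 0.59 to 0.72), above the libraries without doxycycline (0.43 and 0.44).

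Across the whole map, 17 of 17543 bin pairs (0.0969%) differed from Del_1-265 by limma, 15 of them lower with Del_179-265, and 2066 did so at an unadjusted p under 0.05. Against cells without doxycycline, 1360 pairs (7.75%) had an unadjusted p under 0.05 and 2 (0.0114%) were called. Against Y226A-F228A these counts were 1827 (10.4%) and 4 (0.0228%). Few calls between 2 libraries and 2 do not show that the lines are alike. The count against Del_1-265 was 333 without Del_179-265 replicate 1 and 3 without replicate 2. In the insulation profile, 2 of 193 bins (1.04%) differed from Del_1-265, 580 and 600 kb before boundary 6 (-0.13 and -0.16), 9 (4.66%) from cells without doxycycline and 17 (8.81%) from Y226A-F228A. Of the 9, 7 were lower with Del_179-265, led by the bins 60 and 80 kb before boundary 5 at and beside Rlim (-0.26 each, limma adjusted p = 0.000143 and 0.000151). Of the 17, 10 were lower, among them 5 in a row from 80 to 160 kb before boundary 5, and 7 were higher, among them the Atrx bins 100 and 120 kb before boundary 6 (0.21 and 0.19, limma adjusted p = 0.00438). Without Del_179-265 replicate 2 the counts were 0, 3 and 1.

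Within its run of library numbers, Del_179-265 had the lowest scores at boundary 3. Its 0.056 and 0.015 compare with 0.12 to 0.19 in Del_264-288, 0.28 to 0.30 in H288R, 0.29 to 0.35 in Del_1-88 and 0.26 to 0.38 in Del_89-178. At boundary 5 it fell with Del_264-288 (0.43 and 0.45) and H288R (0.44 and 0.45), while Del_1-88 and Del_89-178 ran from 0.62 to 0.67. At boundary 6 its 0.51 and 0.50 overlapped Del_1-88 (0.45 and 0.50) and lay above Del_264-288 (0.43 and 0.47) and below Del_89-178 and H288R (0.59 to 0.62). In the mean of 6 boundaries, Del_264-288 (0.42 and 0.43) overlapped Del_179-265. Between 2 libraries and 2 no exact permutation p can fall below 0.333, so these orders are described and not tested.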

How the data were processed

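In situ 5C libraries (HindIII) were read on mm9 chrX. The deposited counts are reads per forward-by-reverse primer pair, and the deposited signal matrices were made from them by the authors, who balanced them iteratively at fragment level with cooltools to a sum of 1000000. Full-length replicates 10 and 11 hold forward-by-reverse pairs only. 1 of 2 replicates numbered 4, replicate 5 and a library without doxycycline have incomplete count tables, so their counts were not used. Coordinates are mm9, with genes from GENCODE vM1.

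Signal was averaged in bins of 20 kb, with the first diagonals filled, and a square needed 50% of its pairs measured. Contacts within and between segments used pairs from 40 kb. Single values were compared by two-sided exact permutation tests with Benjamini-Hochberg adjustment within each family. The profile and the map (pseudocount 0.05, mean contact of at least 0.1) were tested with limma 3.58.1 in R 4.3.3, and a call means an adjusted p under 0.05. Other values were computed in Python 3.11.15 with numpy 2.4.6, scipy 1.17.1 and pandas 2.3.3. Scripts were tested on simulated data. Named bins and pairs are the 5 largest called falls and rises of the profile and the 5 lower and 5 higher pairs of smallest adjusted p. Peaks came from the authors' list for Full-length FLAG-CTCF, whose values were not used. The libraries, boundaries, lists and tests were chosen with earlier results of these data known. Alternatives were own correction, uncorrected counts, other bins, windows and pseudocounts, leaving out each library, the run of library numbers and the replicate number as a block. Same-numbered libraries did not deviate together (correlations of -0.345 and 0.223 for numbers 1 and 2), so the number was not taken as pairing.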

Additional observations from a re-analysis of the deposited data

Results flagged for a closer look

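At boundary 1, Del_1-265 clone 1 replicate 6 scored -0.36, while the other 5 libraries of that clone lay between -0.23 and -0.21. Its gap to the others was large for a group of 6 by Dixon's criterion. It was the 1 case among 14 groups tested, and chance gives about 1 in 20. The score at boundary 1 was not called between Del_179-265 and Full-length or Del_1-265.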

How the results depend on the processing

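Of 1787 values computed under the alternatives, none that was called changed direction, and 1627 kept their side of the threshold or stayed within the stated margin. These values hold named bins only: of the 59 called bins of the profile, 54 kept their direction on uncorrected counts and 58 with own correction. With the replicate number as a block (replicate block), the 4 called boundaries became 2, the 4 called segments 0, the neighbouring pairs 1, the profile 5 lower and 1 higher, and the map 0 and 0. On uncorrected counts these were 0 boundaries, 18 and 13 bins, and 53 and 2 pairs, and the difference for peak bin pairs was -0.103. The score of contacts on each side over contacts across called 0 boundaries, 10 lower bins and 0 higher. Within the run of library numbers, 2 neighbouring pairs, 4 distance classes and 1 boundary pair were called, and the map gave 1 and 0. limma in place of the exact test called 2 neighbouring pairs. The map gave 148 lower pairs with bins by the median (which moved the median of all pairs by -0.19), 36 and 4 with own correction, 37 and 4 without forward-by-reverse matrices, 145 lower with a pseudocount of 0.01, 54 with 0.2, and 36 higher in 40-kb bins and 5 relative to distance. Leaving out 1 library gave 2 to 4 boundaries, 1 to 4 segments, 0 to 1 neighbouring pairs, -0.0789 to 0.00226 for peak bin pairs, 15 to 37 lower and 13 to 31 higher bins (35 lower without Full-length replicate 1, 27 higher without replicate 2), and 11 to 436 lower and 2 to 46 higher pairs. Against Del_1-265, clone 1 alone gave 0.0285% of pairs and -0.0419 for the mean of 6 boundaries, clone 2 alone 1 bin and -0.0693, and leaving out a Del_179-265 library 0.0171% to 1.90% of pairs, 0 to 3 bins and -0.0656 to -0.0455. The same gave 0 to 0.839% of pairs and 3 bins against cells without doxycycline, and 0 to 1.15% of pairs and 1 to 18 bins against Y226A-F228A. The causes were not tested. With 2 Del_179-265 libraries, 0.0167 is the smallest exact p, and long-range pairs rest on few counts.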
